A study of Homo sapiens with 8 samples.

Results

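The C/EBP genes encode transcription factors of blood and other tissues, and 6 of them, CEBPA, CEBPB, CEBPD, CEBPE, CEBPG and CEBPZ, were followed through a list of PML::RARA binding sites in U937-PR9 cells. A peak was taken as belonging to a C/EBP gene when the authors had given it that gene's symbol, or when it carried no symbol and its centre lay within 50 kb of such a peak on the same chromosome. This gave 17 of the 15412 peaks in the list, of which 6 were labelled with a C/EBP gene and 11 carried no label. U937-PR9 is a single monocytic cell line that carries a PML::RARA transgene under a zinc-responsive promoter. Induced cells had been kept for 5 h with 100 μM ZnSO4 and uninduced cells with water, and Cut&Run, in which a nuclease tethered to an antibody releases the bound DNA for sequencing, was carried out with an anti-PML::RARA and an anti-RARA antibody, with 2 replicates of each condition and 8 libraries in all. The peaks described here are those of the anti-PML::RARA antibody in the induced cells, and the other libraries were not analysed here. The effect of zinc itself and that of PML::RARA cannot be told apart in a list of induced cells alone. The identity of the cells could not be checked against marker genes, since a peak list holds no RNA.

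The list gives 1 value per peak for the largest signal within it, called height here, for the signal summed over it, called total signal, and for its width. The median height was 25, within a range of 13 to 87, and the median width was 829.5 bp, within a range of 77 to 7313 bp. The label was given by the authors where the apex of the peak, the interval of largest signal, overlapped a promoter. There is no value per replicate and the sequencing depth is unknown, so no difference between peaks could be tested against replicate error, and all comparisons below are descriptions of 1 list.

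C/EBP proteins are basic leucine zipper factors that bind DNA as dimers with each other or with related zipper proteins. In the myeloid lineage, CEBPA commits progenitors to the granulocyte and monocyte fates, CEBPE drives the late steps of granulocyte maturation, and CEBPB and CEBPD act in inflammatory and emergency responses. CEBPG lacks a strong activation domain and serves mainly as a dimer partner, and CEBPZ shares the name and a link to CCAAT sequences but not the zipper structure. PML::RARA, the fusion protein of acute promyelocytic leukaemia, binds DNA through its RARA moiety, which recognises retinoic acid receptor half-sites, and the disease is a block at a stage of differentiation that C/EBP factors normally carry cells through.

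The sequences that the results below refer to are shown here. They were read from the GRCh37 genome (hg19) on the strand of the gene, and capitals mark matches on either strand to the motifs that were searched, namely C/EBP, ETS, RUNX, AP-1, the retinoic acid receptor half-site, the GC box and the CCAAT box. The first sequence is the 201 bp about the apex of the highest peak at any C/EBP gene, which lay 41.6 kb downstream of the CEBPA start site at chr19:33751759-33751959 (minus strand), and its capitals mark RUNX, ETS, ETS, half-site and RUNX matches in that order. The second is the 201 bp about the apex 33.7 kb downstream of CEBPA at chr19:33759591-33759791 (minus strand), with a PU.1-type ETS match close to the apex. The third is the apex 24.6 kb upstream of CEBPB at chr20:48782707-48782907 (plus strand), with a pair of AP-1 matches and a half-site. The fourth is the apex of the higher CEBPE promoter peak at chr14:23589326-23589526 (minus strand), where a PU.1-type match precedes the outer CEBPE start site and a CCAAT box follows it in the window. The fifth is the apex of the peak downstream of CEBPE at chr14:23581999-23582199 (minus strand), with a C/EBP match. The last pair is the 300 bp upstream of the start sites of CEBPA, at chr19:33793441-33793740 (minus strand), and of CEBPB, at chr20:48807067-48807366 (plus strand), in which the capitals are GC boxes and, at CEBPB, also 1 CCAAT box.
CEBPA, 41.6 kb downstream: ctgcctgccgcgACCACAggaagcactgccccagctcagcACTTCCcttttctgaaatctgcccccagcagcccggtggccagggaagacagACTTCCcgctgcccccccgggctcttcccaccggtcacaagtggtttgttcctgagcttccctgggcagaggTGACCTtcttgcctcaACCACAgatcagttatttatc
CEBPA, 33.7 kb downstream: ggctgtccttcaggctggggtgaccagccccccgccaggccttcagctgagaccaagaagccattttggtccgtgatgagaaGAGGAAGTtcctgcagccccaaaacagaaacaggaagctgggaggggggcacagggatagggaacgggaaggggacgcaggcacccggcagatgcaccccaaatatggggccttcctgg
CEBPB, 24.6 kb upstream: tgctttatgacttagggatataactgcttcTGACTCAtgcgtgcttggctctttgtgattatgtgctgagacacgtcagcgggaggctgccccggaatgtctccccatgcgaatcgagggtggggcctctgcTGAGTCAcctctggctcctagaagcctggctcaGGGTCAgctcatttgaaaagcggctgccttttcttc
CEBPE, higher promoter peak: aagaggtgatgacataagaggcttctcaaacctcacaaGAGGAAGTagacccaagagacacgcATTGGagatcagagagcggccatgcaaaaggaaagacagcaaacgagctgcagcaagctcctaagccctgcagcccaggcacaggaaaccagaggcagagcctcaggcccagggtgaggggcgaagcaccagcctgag
CEBPE, downstream peak: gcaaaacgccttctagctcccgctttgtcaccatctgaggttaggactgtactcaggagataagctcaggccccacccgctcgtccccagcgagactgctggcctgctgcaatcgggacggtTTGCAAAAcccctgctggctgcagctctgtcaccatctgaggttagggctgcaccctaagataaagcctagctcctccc
CEBPA, upstream of the start site: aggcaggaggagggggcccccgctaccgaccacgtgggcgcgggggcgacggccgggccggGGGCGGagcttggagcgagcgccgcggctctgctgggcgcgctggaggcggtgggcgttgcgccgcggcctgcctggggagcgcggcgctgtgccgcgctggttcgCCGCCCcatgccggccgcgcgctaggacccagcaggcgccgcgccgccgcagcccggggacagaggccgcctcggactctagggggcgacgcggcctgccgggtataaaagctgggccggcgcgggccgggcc
CEBPB, upstream of the start site: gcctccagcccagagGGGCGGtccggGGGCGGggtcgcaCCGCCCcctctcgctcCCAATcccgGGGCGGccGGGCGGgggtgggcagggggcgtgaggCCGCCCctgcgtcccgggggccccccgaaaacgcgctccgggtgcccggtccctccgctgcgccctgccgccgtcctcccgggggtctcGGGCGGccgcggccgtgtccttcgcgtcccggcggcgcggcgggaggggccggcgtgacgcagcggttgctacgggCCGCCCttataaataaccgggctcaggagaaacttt

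Of the 6 genes, 4 had at least 1 labelled peak, namely CEBPA, CEBPB, CEBPE and CEBPG, and CEBPD and CEBPZ had none. Over all 20090 protein-coding genes of the annotation, 30.0% had a labelled peak. Genes were matched by symbol, so a gene that the authors labelled under a former symbol was missed, and this share can be too low. CEBPA and CEBPB had 1 labelled peak each, and CEBPE and CEBPG had 2 each. The 11 peaks without a label were spread unevenly, with 7 at CEBPA, 2 at CEBPB and 1 each at CEBPE and CEBPG. Their median height was 36, whereas that of the 6 labelled peaks was 20, and over the whole list the order was the opposite, with medians of 23 without and 26 with a label. Of the peaks without a label, 7 of 11 exceeded the median height of the list, and of the labelled peaks 2 of 6 did. With a reach of 25 kb in place of 50 kb, the number of peaks at these genes was 11.

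**Figure D1:**
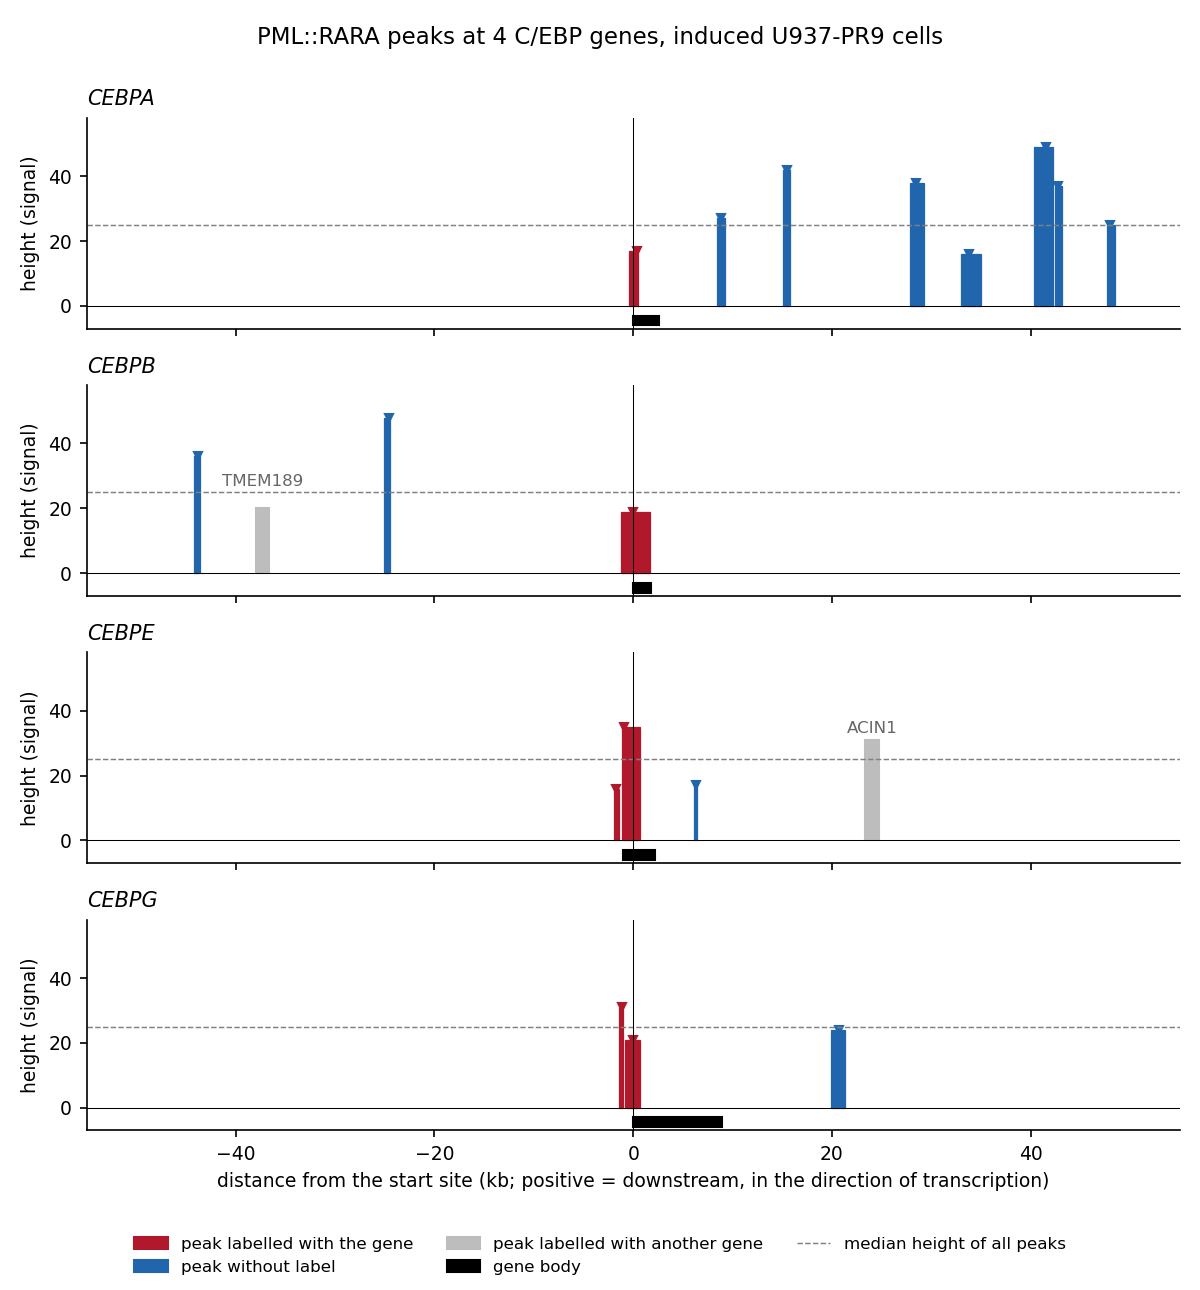
Height of each peak (vertical axis, signal) against the distance from the start site of the gene in kb (horizontal axis), with one panel for each of 4 C/EBP genes. Bars are drawn at the true width of the peaks, triangles mark the apex, the black bar is the gene and the dashed line is the median height of 25. At CEBPA the 7 peaks without a label all lay downstream of the gene and reached a height of 49, above a labelled peak of height 17.

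CEBPA, the factor that commits progenitors to the myeloid lineage (ENSG00000245848, minus strand of chromosome 19 from 33790840 to 33793440, hg19), had its signal away from the promoter. The labelled peak, from 33792908 to 33793881, was 17 high and 974 bp wide and had an apex 353 bp downstream of the start site in the coding sequence of exon 1. It ranked 13294 by height, a rank shared by 984 peaks, was higher than 7.36% of the list, and ranked 6217 by width. Its signal was comparatively even, with a mean of 43.7% of its height, a share above that of 87.2% of the peaks. By total signal, 7238, it was above 49.7% of the list. The promoter of CEBPA was covered by a peak that was low and flat but of about median total signal.

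All 7 other peaks at CEBPA lay downstream of the gene and none upstream, and 6 of the 7 were higher than the promoter peak. That count is near the share over the whole list, of which only 13.7% was at or below the height of this low promoter peak. The nearest to the gene, from 33784177 to 33785008 with an apex 8.8 kb from the start site, was 27 high (rank 6155, with 522 peaks at that height) and 832 bp wide (rank 7669). The next, from 33777704 to 33778396 at 15.4 kb, was 42 high (rank 1553, 174 peaks) and 693 bp wide (rank 9318), and its apex lay 1353 bp from the start site of the long noncoding RNA gene ENSG00000270212. The peak at 28.4 kb, from 33764226 to 33765553, was 38 high (rank 2313, 216 peaks) and 1328 bp wide (rank 3460). All 3 were higher than the median of the list, and all were intergenic.

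The peak at 33.7 kb, from 33758393 to 33760444, departed from this pattern. It had a height of 16 (rank 14278, shared by 1115 peaks), above only 0.130% of the list, but a width of 2052 bp (rank 949), above 93.8%. Its total signal of 11800 was above that of 71.9% of the peaks. This low and broad peak held the PU.1-type match printed above, whose centre lay 14.5 bp from the apex.

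The highest C/EBP peak, from 33751156 to 33753119 with its apex 41.6 kb downstream of CEBPA, had a height of 49. It ranked 706 by height, with 88 peaks at the same value, and 94.9% of the list was lower. Among the 1542 peaks of the widest of 10 equal classes of width, 82.5% were lower. It ranked 1131 by width with 1964 bp, and its total signal of 19084 was above that of 88.3% of the peaks. The mean signal was 19.8% of the height, a share lower than that of all but 0.383% of the peaks. How the signal was spread within the peak is not given by the list. A second peak of height 37 (rank 2529, 286 peaks) and width 693 bp (rank 9318), from 33750257 to 33750949, lay 206 bp beyond it with an apex at 42.8 kb. Both lie in the stretch downstream of the gene where the myeloid enhancer of CEBPA, known as a site of RUNX1 binding, is placed, although no annotation of enhancers was used here. The coding gene whose start site was nearest to them was SLC7A10, an amino acid transporter gene, at 35103 and 33916 bp, and not CEBPA. The farthest peak, from 33744996 to 33745730 at 47.9 kb, was 25 high (rank 7226, 591 peaks) and 735 bp wide (rank 8796), and its apex was 28743 bp from the SLC7A10 start site. Its centre was 47.5 kb from the labelled peak and thus just within the reach, whereas a peak 29 high and 1184 bp wide, from 33739524 to 33740707, lay just outside at 52.8 kb.

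To place CEBPA among the other genes, the peaks without a label within 50 kb were counted for each of the 6546 gene symbols with a labelled peak. The median gene had 0 and 53.1% had none, whereas 65 genes (0.993%) had 7 or more, as CEBPA had. Chromosome 19 is dense in genes and peaks, and on it 9 of 507 labelled genes (1.78%) had 7 or more. At CEBPA, 91.1% of the total signal within reach lay in peaks without a label, a share above that of 99.2% of the labelled genes. That comparison includes the 53.1% of genes with no such peak, whose share is 0. Among genes with any such peak, the median share was 48.2%. The 7 peaks without a label at CEBPA also made up 8297 of the 9271 bp that its peaks covered. The total over the 8 peaks of CEBPA was 81472 over 9271 bp, above that of 97.0% of the genes, with a median over genes of 15543. The highest peak without a label exceeded the highest labelled peak by 32 in height, a difference above that of 97.4% of the 3073 genes with any such peak, whose median was 0. At CEBPA this sets the highest of 7 peaks against 1, whereas 1487 of the 3073 genes had only 1 peak without a label. A peak without a label can lie within reach of several genes and was counted for each of them. The reach of 50 kb was set knowing that it takes in the stretch downstream of CEBPA. These comparisons with other genes were not repeated at other reaches. Of the CEBPA peaks without a label, only those with centres 8.32 and 14.9 kb from the labelled peak lay within 25 kb. The count of 7 thus depends on the reach.

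**Figure D2:**
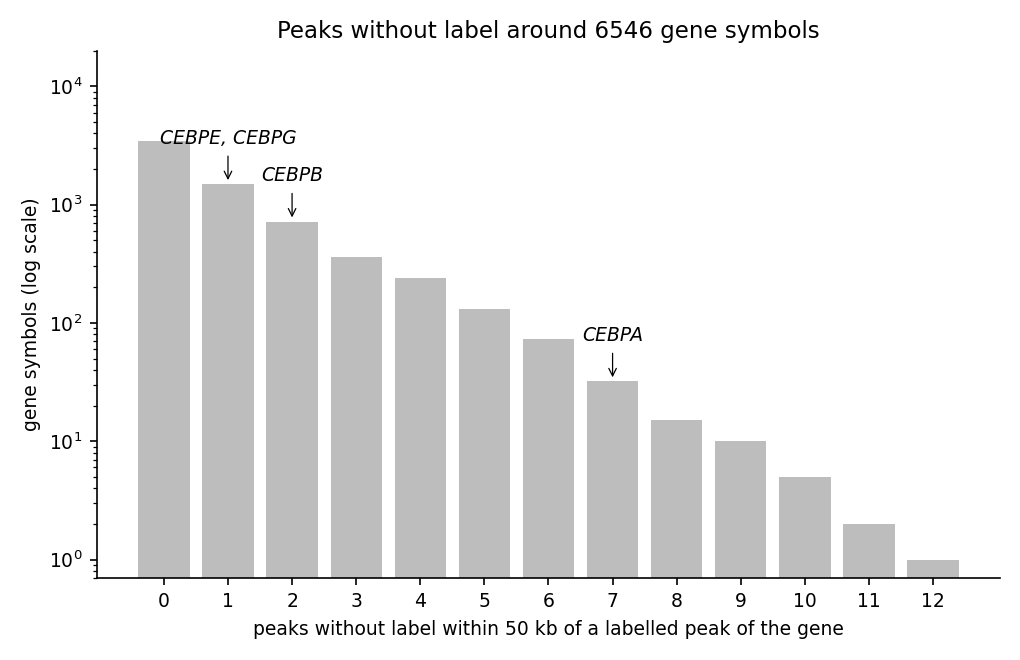
Number of gene symbols (vertical axis, log scale) with each number of peaks without a label within 50 kb of one of their labelled peaks (horizontal axis), over 6546 gene symbols. Arrows mark the C/EBP genes. CEBPA, with 7, stands in the sparse right tail, and CEBPE, CEBPG and CEBPB, with 1, 1 and 2, lie in the bulk of the genes.

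CEBPB, a factor of inflammatory and stress-induced myelopoiesis (ENSG00000172216, plus strand of chromosome 20 from 48807367 to 48809205), was covered by 1 wide peak. This labelled peak, from 48806161 to 48809043, was 2883 bp wide (rank 254), wider than 98.3% of the list, and reached over nearly the whole gene. Its height was only 19 (rank 11488, 913 peaks), above 19.5% of the list, and its apex lay 30 bp upstream of the start site, within intron 1 of the antisense gene CEBPB-AS1. Its total signal of 19720, above that of 89.4% of the peaks, therefore came from its width. Among the 1542 peaks of the widest of 10 equal classes of width, 3.63% were lower.

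Both other peaks at CEBPB lay upstream, and both were narrow and high. The peak from 48782279 to 48782938, with an apex 24.6 kb upstream, had a height of 48 (rank 794, 96 peaks), above 94.2% of the list, and a width of 660 bp (rank 9747). Its apex lay 37 bp from the start site of the noncoding gene LINC01275 and in no annotated transcript. Of the 1541 peaks in its own class of width, 97.8% were lower. The peak from 48763118 to 48763767, at 43.8 kb, was 36 high (rank 2815) and 650 bp wide (rank 9877), and its apex lay in intron 1 of PEDS1 and of the readthrough gene PEDS1-UBE2V1. Between these peaks lay a peak that the authors labelled TMEM189, the former symbol of PEDS1, 20 high and 1391 bp wide. The higher of the upstream peaks exceeded the CEBPB promoter peak by 29 in height, above the difference of 96.2% of the 3073 genes with a peak without a label. Here too the higher of 2 peaks is set against 1. The upstream pair held 48.9% of the total signal of 38602.

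CEBPE, which drives the final stages of granulocyte maturation (ENSG00000092067, minus strand of chromosome 14 from 23586245 to 23589465), showed the reverse arrangement, with its highest peak at the gene. The annotation gives this gene 3 start sites, and the canonical one, at 23588464, lies within the gene interval. The larger labelled peak, from 23587737 to 23589626 and 1890 bp wide (rank 1280), ranked 3088 by height at 35, with 313 peaks at that value, and was higher than 77.9% of the list. Among peaks of the widest class, 47.4% were lower, so that its height was near the middle of the class. Its apex lay 962 bp upstream of the canonical start site but 39 bp from the outermost one, in exon 1 of a transcript without a coding sequence. The smaller labelled peak, 308 bp further out from 23589935 to 23590395, had a height of 16 (rank 14278, 1115 peaks) and a width of 461 bp (rank 12582), and no peak of its width class was lower. Downstream of the gene, the single peak without a label, from 23582014 to 23582393, was nearly as low, 17 high (rank 13294, 984 peaks) and 380 bp wide (rank 13637), at 6.37 kb from the canonical start site. Peaks without a label held 9.0% of the total signal of 23775 at CEBPE, beside 91.1% at CEBPA.

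CEBPG, the dimer partner with little activating function of its own (ENSG00000153879, plus strand of chromosome 19 from 33864591 to 33873592), lies next to CEBPA on the chromosome, and the stretch of 69269 bp between the labelled peaks of these genes held no peak. Its labelled peaks differed in shape. The peak from 33863773 to 33865294, with an apex 61 bp upstream of the canonical start site, had a height of 21 (rank 9879, 812 peaks) and a width of 1522 bp (rank 2453). The peak from 33863151 to 33863546, 226 bp further upstream with an apex at 1131 bp, was higher at 31 (rank 4397, 423 peaks) and only 396 bp wide (rank 13438), and 89.5% of the peaks in its width class were lower. The peak without a label, from 33884503 to 33885906, was 24 high (rank 7817) and 1404 bp wide (rank 3065), and its apex lay in intron 12 of PEPD, the gene of a dipeptidase, 689 bp from a PEPD start site. It held 28.7% of the total signal of 26300 at CEBPG.

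Across the 17 peaks, height and width varied separately. The peaks over the start sites of CEBPB, CEBPG and CEBPE were 1522 to 2883 bp wide with heights of 19 to 35, whereas that of CEBPA was 974 bp wide and 17 high. The distal peaks at 24.6 and 43.8 kb upstream of CEBPB and at 15.4 and 42.8 kb downstream of CEBPA were 650 to 693 bp wide with heights of 36 to 48. Other distal peaks at CEBPA were wide, that at 33.7 kb with 2052 bp and a height of 16, that at 28.4 kb with 1328 bp and a height of 38 and that at 41.6 kb with 1964 bp and a height of 49. Of the labelled peaks 4 of 6 were wider than the median, and of the peaks without a label 5 of 11. Over the whole list too, labelled peaks were the wider ones, with a median of 1108 bp against 634 bp without a label.

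**Figure D3:**
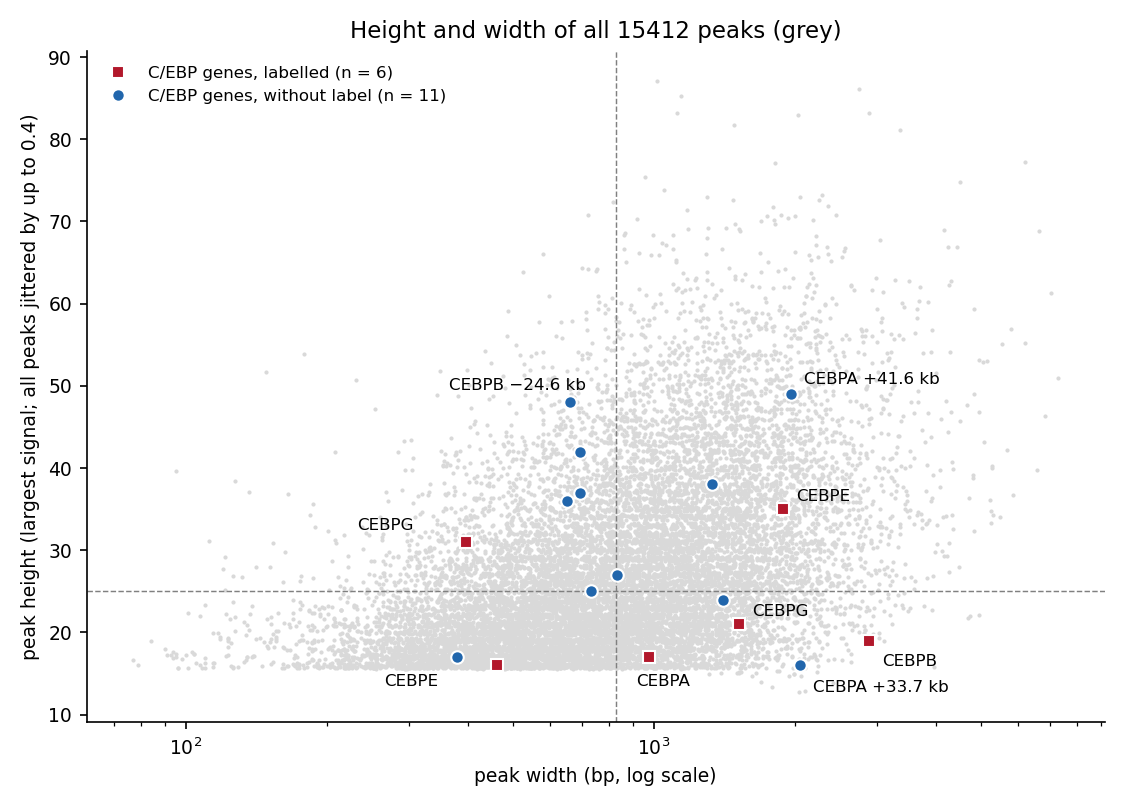
Height (vertical axis, largest signal) against width (horizontal axis, bp, log scale) of all 15412 peaks in grey, with the 6 labelled C/EBP peaks as squares and the 11 peaks without a label as circles. Dashed lines are the medians, 25 for height and 829.5 bp for width. The CEBPB promoter peak lies far to the right at a height of 19, and the peak 24.6 kb upstream of it lies to the left of the median width at a height of 48.

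CEBPD (ENSG00000221869, minus strand of chromosome 8 from 48649475 to 48650726), an acute-phase and inflammatory member of the family, had no labelled peak and no peak over the gene. A single peak without a label, 705 bp wide and 17 high (above 7.36% of the list), lay 1.38 kb beyond the 3′ end of the gene, with its apex 2.77 kb downstream of the start site. If an apex within 3 kb of a start site was asked for in place of the label, 5 of the 6 genes had a peak, CEBPD being the fifth, where 42.1% of all protein-coding genes did. The next peak on this chromosome, labelled PRKDC, was 222 kb away. CEBPZ (ENSG00000115816, minus strand of chromosome 2 from 37428755 to 37458739), which is the member without a leucine zipper, lay under no peak either, and the nearest were a peak of height 20 labelled HEATR5B at 117 kb and an unlabelled one of height 16 at 159 kb. A gene without a peak in this list had no peak past the authors' thresholds, and the list gives no value of signal for it.

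The base composition within 200 bp of the apex differed among the labelled peaks. At the labelled peaks of CEBPA and CEBPB and the wider one of CEBPG, the bases were 78.1%, 76.6% and 76.6% G and C, with an observed over expected CpG ratio of 0.92 to 1.01, as in CpG islands. The outer CEBPG peak had 51.4%, below the median of 60.3% over the 11 peaks without a label, but a ratio of 1.06. The CEBPE promoter peaks differed, with 56.4% and 55.4% G and C and CpG ratios of 0.223 and 0.236, inside the range of 0.193 to 0.432 found over the 11 peaks without a label. The median over all labelled peaks was 64.3% G and C with a ratio of 0.808, and over all peaks without a label 52.9% with 0.257.

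Both strands of the 200 bp on each side of an apex were searched for motifs, as TTGCNNAA for C/EBP, GGAAGT for ETS with the longer GAGGAAGT as its PU.1-type, TGTGGT for RUNX, TGANTCA for AP-1, GGGCGG for the GC box and CCAAT for the box of that name. The half-site was searched as AGGTCA and in the other accepted forms, namely GGGTCA, besides this also AGTTCA, and lastly also GGTTCA. Every PU.1-type match is also an ETS match. Half-sites, the letters that the RARA moiety recognises, were present at 11 of the 17 peaks and at 55.3% of all peaks of the list. They were found at 9 of the 11 peaks without a label (63.7% over the list) and at 2 of the 6 labelled ones (45.6%), with none near the apex of the labelled peaks of CEBPA and CEBPB, the larger of CEBPE and the wider of CEBPG. Both counts depended on the window. Around the middle of the peak instead of its apex, 7 peaks held a half-site (54.8% of the list). Over the whole peak 14 did (79.5% of the list), 5 of the 6 labelled peaks (81.1%) and 9 of the 11 without a label (78.2%), and the labelled peak of CEBPB, the larger of CEBPE and the wider of CEBPG then held 3 half-sites each. No peak held a direct repeat of half-sites with 0 to 8 bases between within 200 bp of the apex, where 1.80% of the list did.

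Over the full width of the peaks, direct repeats were found at 2 distal peaks, and at 3.77% of all peaks. One of them, GGTTCAcagtctGGGTCA with the half-sites in capitals and 6 bases between, lay 712.5 bp from the apex of the CEBPA peak at 41.6 kb, at chr19:33752563-33752580 (minus strand). The CEBPB peak at 43.8 kb held a pair, AGGTCAcatagcagAGGTCA with 8 bases between at chr20:48763314-48763333 (plus strand) and TGACCTacccTGACCC, with 4 bases between and the half-sites on the other strand, at chr20:48763156-48763171. They lay 278.5 and 438.5 bp from the apex.

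RUNX matches were found at 5 of 17 peaks (28.7% of the list), AP-1 matches at 4 (17.7%), ETS matches at 4 (42.3%), PU.1-type matches at 2 (8.77%) and C/EBP matches at 3 (16.8%). The search window can reach past the edge of a peak. The RUNX match counted for the CEBPB peak at 24.6 kb lay beyond its edge. So did a GC box and a half-site counted for the outer CEBPG peak. CCAAT boxes were found at 6 (39.6%) and GC boxes at 10 (48.7%), of which 4 were among the 6 labelled peaks (76.2% over the list) and 6 among the 11 without a label (24.9%). The CEBPA peak at 41.6 kb held the most of these, with 3 RUNX and 2 ETS matches and 1 half-site, and the ETS match nearest to the apex was centred 5.5 bp from it. RUNX, ETS and half-site matches together were found at 8.07% of the list and at 12.2% of the peaks without a label, and 3 or more RUNX matches at 1.23% and 2.07%. At CEBPB, the peak at 24.6 kb held 3 AP-1 matches, the outermost beyond the edge of the peak, a number reached by 0.253% of all peaks and 0.425% of those without a label. These combinations were chosen after the matches had been seen. The PU.1-type matches lay at the low and broad CEBPA peak at 33.7 kb and at the larger CEBPE promoter peak, 14.5 and 58.5 bp from the apex.

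C/EBP matches, the letters that the encoded factors themselves recognise, were found at the peak downstream of CEBPE, which held 2, at the CEBPA peak at 8.8 kb and at the outer CEBPG peak. None lay within 200 bp of the apex of the labelled peaks of CEBPA, CEBPB and CEBPE. In the 300 bp upstream of the start sites, CEBPB held 8 GC boxes and CEBPA 2, CEBPE held no GC box but 1 AP-1 match, and CEBPG held no GC box but 2 CCAAT boxes. A GC box was present in 60.9%, a CCAAT box in 37.8% and an AP-1 match in 5.74% of the 19819 upstream windows of coding genes. A match describes the letters only, and binding of any other factor was not measured here.

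**Figure D4:**
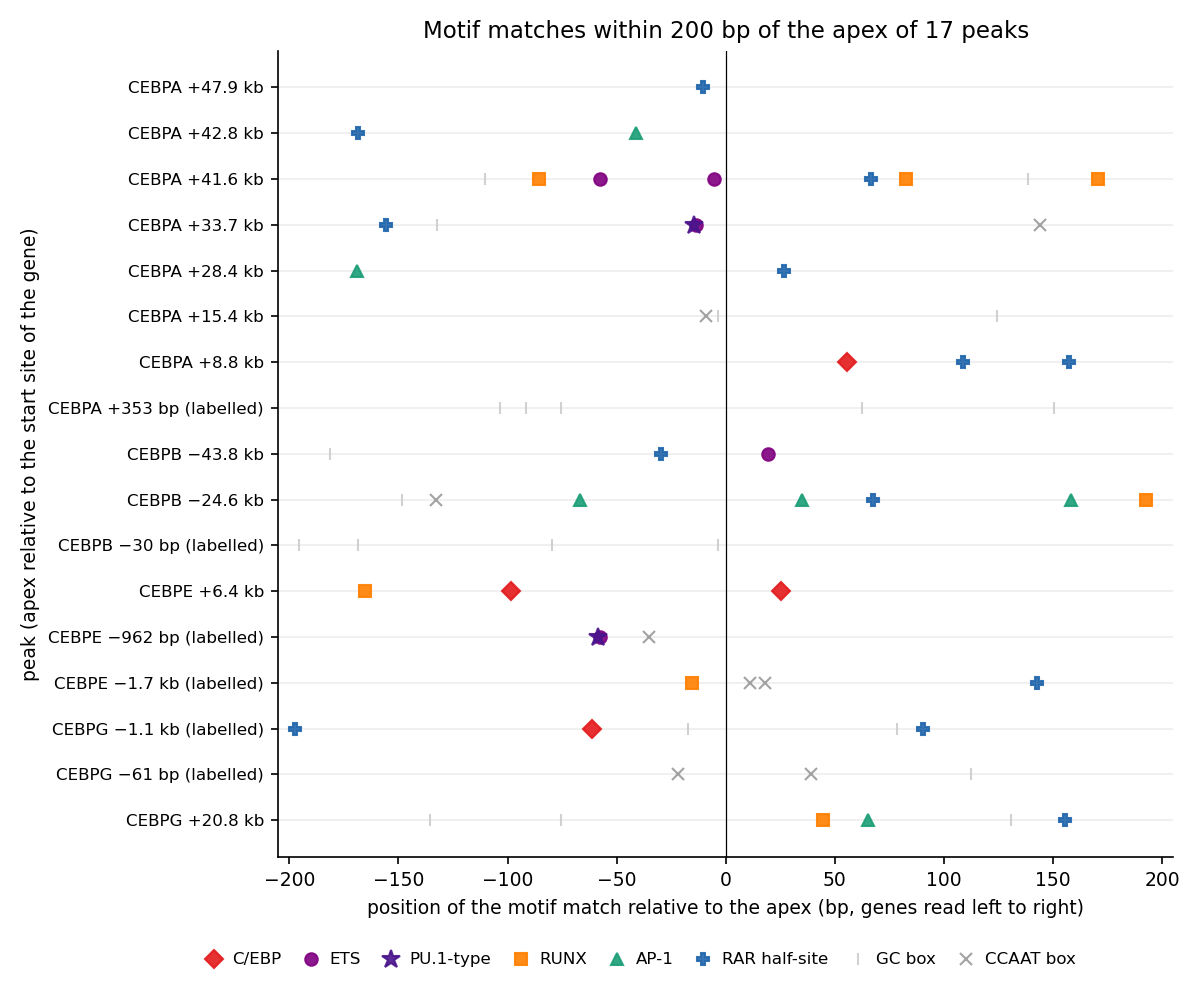
Position of each motif match relative to the apex in bp (horizontal axis, read in the direction of the gene) for the 17 peaks (vertical axis, named by the distance of the apex from the canonical start site of the gene). The CEBPA peak at 41.6 kb carries RUNX matches on both sides of the apex, ETS matches on one side and a half-site on the other. Within 200 bp of the apex, the promoter peaks of CEBPA and CEBPB carry GC boxes only.

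To compare the family with the genes around it, 44 other genes of the C/EBP network were examined. Of these, 30 (68.2%) had a labelled peak, beside the 30.0% of all protein-coding genes, a share that can be too low, as said above. Among partners and inhibitors 9 of 13 were labelled, among transcription factors upstream of the family 8 of 11, and among targets 13 of 20. The median height of the highest labelled peak was 40, 34 and 30 in these lists and 27 over all labelled genes. The lists were drawn up with earlier results of these data known, so these counts carry no independent weight.

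Among the partners and inhibitors, DBP, a zipper protein of the PAR family, had a labelled peak 55 high and 5534 bp wide, and DDIT3 (CHOP), a dominant inhibitor of C/EBP dimers, one 49 high and 1985 bp wide. TRIB1, an adaptor for the degradation of C/EBPα, reached 42 and ID2 and TEF 40, whereas TRIB2 and NFIL3 reached 16. ATF4, BACH2, HLF and ID1 had no labelled peak. Among the upstream factors, RUNX1, a regulator of the CEBPA enhancer, had 3 labelled peaks, and its highest, at 74, was above 99.9% of the list. GFI1, a repressor in granulocytic cells, had a peak 5474 bp wide and MYB one of 4151 bp, both 34 high. LMO2 and E2F1 reached 36, whereas SPI1 reached only 22, CBFB 20 and FLI1 17, and ERG, GATA2 and KLF4 had no labelled peak.

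The targets of C/EBP factors included granule proteins, receptors and cytokines. ITGAM, the integrin chain CD11b of mature myeloid cells, had the highest labelled peak among them at 42, followed by AZU1 and IL6R at 37 and MPO (myeloperoxidase) at 34. CSF3R, the receptor of granulocyte colony-stimulating factor, reached 21, ELANE (neutrophil elastase) 19 and CD14 17. CEACAM8, CSF2RA, IL6, LTF, LYZ, PRTN3 and S100A8 had no labelled peak. With an apex within 1 kb of a start site in place of the label, 30 of the 44 genes again had a peak, where 39.3% of all coding genes did, but ATF4, ID1 and IL6 took the place of SPI1, CSF1R and CD14.

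**Figure D5:**
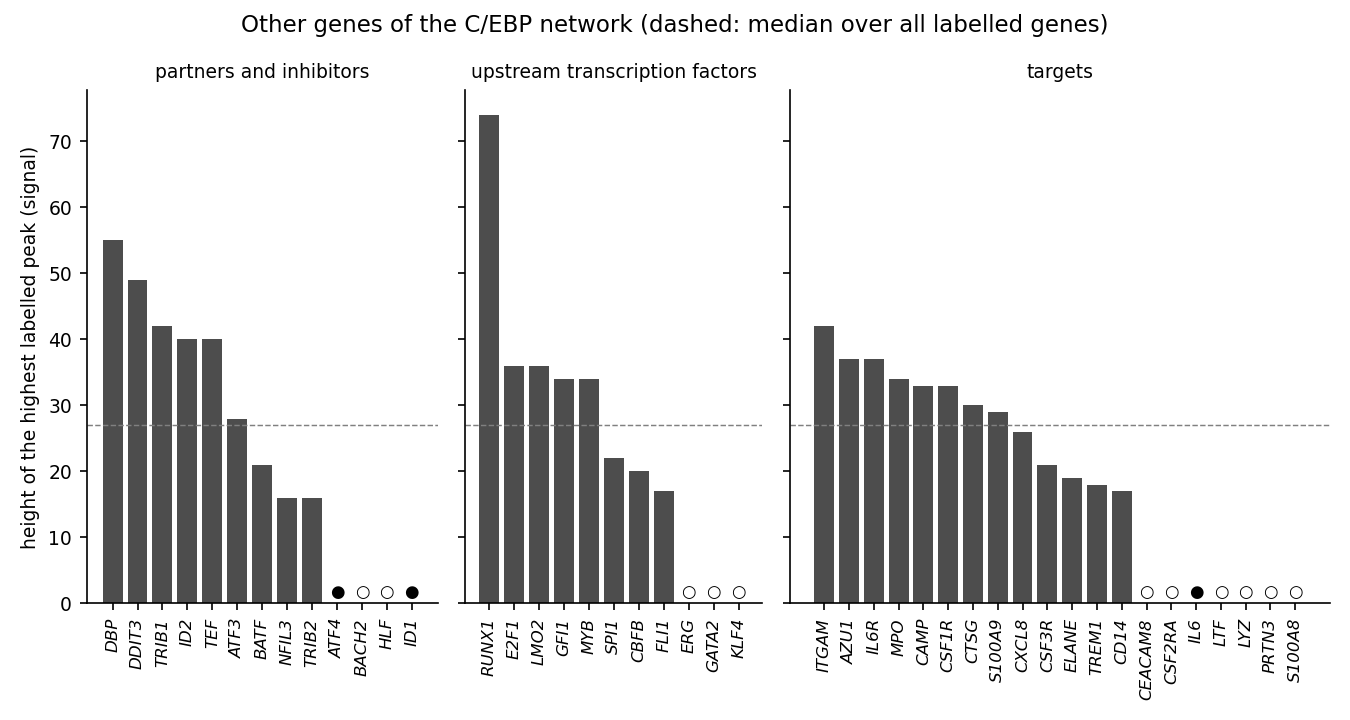
Height of the highest labelled peak (vertical axis, signal) for 44 genes of the C/EBP network in 3 lists, ordered by height. The dashed line is the median of 27 over all labelled genes, and circles mark genes without a labelled peak, filled where an apex lay within 1 kb of a start site of the gene. RUNX1 stands at 74, and 14 genes have no labelled peak.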

How the data were processed

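Of the 8 Cut&Run libraries of U937-PR9 cells, those of induced cells with the anti-PML::RARA antibody gave the list analysed. Reads had been trimmed (Trimmomatic), aligned to hg19 (Bowtie2) and freed of duplicates (Samtools) and of blacklisted regions (Bedtools) by the authors. Peaks were called by SEACR with the paired control and the norm union setting, and those passing an IDR of 0.05 between the 2 replicates were kept. Versions were not given in the sources used here. The authors deposited a total signal and a score per peak, the score being the largest signal. What each holds was read from the values, as the column names differ, and the total stayed below height times width in all 15412 peaks. Whether the signal was scaled, or comes from 1 or both replicates, is not given in the sources used here. The gene symbols are the authors', from UCSC known genes of hg19.

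The apex was the middle of the interval of largest signal, or its start in 34 peaks that lack the end. Start sites, exons and introns came from GENCODE release 44 mapped to GRCh37, the same build as hg19, and sequences from the GRCh37 genome. The share of lower peaks counts peaks strictly below. Ranks count from the highest or widest peak, with ties at the best rank. Width classes are 10 equal parts of the list ordered by width. No test was run, since the list has no values per replicate. The choice of peaks was checked on a small made-up list and the share of lower peaks on a short set of numbers. The motif scans were checked on random sequences with planted motifs. The genes, the network lists and the motifs were chosen with earlier results of these data known. The genes named in the text are all 6 members and the genes of the network lists, and other genes are named only to place a peak. Alternatives were other reaches, merged peaks, median filters, other definitions of a promoter, other reference peaks and other motif windows. Python 3.11.15 was used, with the packages pandas 2.3.3, numpy 2.4.6, matplotlib 3.10.9 and pysam 0.24.0, and samtools 1.23.1 indexed the genome.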

Additional observations from a re-analysis of the deposited data

How the results depend on the processing

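Of 58 alternatives, 17 left a value within 1.5 times a count or within the Wilson 95% interval of a share, and 41 moved it. The interval covers only the counting of 15412 peaks, so small shifts count as moved. The number of peaks at the C/EBP genes (17) was 11 with a reach of 25 kb, 2 among peaks at or above the median height, since the labelled peaks of CEBPA and CEBPB then drop out with all around them, and 9 once narrower peaks than the median were dropped. Only 2 of the 4 genes, CEBPE and CEBPG, kept a labelled peak at or above the median height. The number of genes was 4 and 5 with an apex within 1 and 3 kb of a start site, where 39.3% and 42.1% of all coding genes had one.

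The share of lower peaks depended most on the measure. By total signal in place of height, it was 49.7% for the labelled peak of CEBPA, 89.4% for CEBPB, 87.8% and 12.4% for the larger and smaller of CEBPE, and 23.2% and 80.5% for the outer and wider of CEBPG. Within the same class of width, in the same order, it was 4.41%, 3.63%, 47.4%, 0%, 89.5% and 12.5%. Among labelled peaks only, it was 6.05%, 16.0%, 74.5% and, for both CEBPG peaks, 64.0% and 26.0%. With peaks of the same height counted too, it was 13.7%, 25.5%, 80.0%, 7.36%, 71.5% and 35.9%. The share of narrower peaks among labelled peaks only was 39.9%, 97.1%, 86.2%, 7.21%, 4.91% and 74.1%.

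Over the whole peak, C/EBP matches were found at 5 peaks (30.5% of the list), AP-1 at 7 (27.0%), CCAAT at 11 (59.1%) and direct repeats at 2 (3.77%). About the middle of the peak, PU.1-type matches were found at 0 (7.97%), RUNX at 3 (27.6%), half-sites at 7 (54.8%) and direct repeats at 1 (1.74%). The count of network genes by distance to a start site, an alternative chosen after seeing the data, was 30 as before.

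No paired analysis was possible because replicates have no values of their own in the list, which also means that none was left out. The depth of the libraries is unknown, and no value is given for genes without a peak.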

Other observations

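Beyond the reach of 50 kb, the CEBPB region held a further group of peaks without a label. On the downstream side, where no such peak lay within reach, 5 peaks were found from 69.9 to 93.3 kb from the start site, with heights of 20 to 30 and widths of 663 to 1221 bp. On the upstream side, 1 peak of height 23 lay at 80.5 kb, beside peaks of height 29 and 21 labelled UBE2V1. All of them were lower than the peaks at 24.6 and 43.8 kb upstream. With a reach of 100 kb, and each peak counted only for its nearest C/EBP gene, CEBPA and CEBPB had 9 peaks each and CEBPE and CEBPG 3 each. At this reach CEBPA and CEBPG have peaks in common, among them the peak in PEPD, which was counted for CEBPG. The equal count of CEBPA and CEBPB therefore holds only under this assignment.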
